A study of Mus musculus with 81 samples.

Results

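The 6 chemokine receptor genes Ccr1, Ccr2, Ccr7, Ccrl2, Cx3cr1 and Cxcr4 were followed across all RNA-seq libraries of myeloid cells from mice labelled WT or H3.3cKO, a conditional knockout of histone H3.3. They were picked by symbol from the 54079 genes listed in every library, and counts of reads in either orientation were used. All 6 passed the filter on low counts in the time course, in peritoneal macrophages and in the BMDM sets. Ccr7 did not pass it in day 8 BMDMs or in the antibody experiment, so 5 receptors were tested there.

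WT mice were H3f3a fl/fl H3f3b fl/fl, and cKO mice carried the same floxed alleles with LysM cre/cre (H3.3cKO). WT mice carried no Cre, so deletion of the floxed alleles and the presence of homozygous LysM-Cre, which sits in Lyz2, cannot be told apart. The groups were bone marrow cells grown towards bone marrow-derived macrophages (BMDMs) in L929-conditioned medium and taken on days 3, 5 and 7, BMDMs of day 8 with or without interferon-γ (IFNγ) for 12 h, resident peritoneal macrophages, and BMDMs given no antibody, control antibody or IFNAR1 antibody. A further experiment held 3 sets of WT and cKO BMDMs with the double KO lines H3.3cKO:StingKO, H3.3cKO:MavsKO and H3.3cKO:Irf7KO, all on the cKO background. Each group had 3 libraries, except the cKO groups of day 8 with 2, and 79 of 81 libraries were placed in a group. The labels call the libraries biological replicates without saying which mice gave them, so p-values measure the spread between these libraries.

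Chemokine receptors are G protein-coupled receptors that steer leukocytes along gradients of chemokines. Ccr2, the receptor of Ccl2, Ccl7 and Ccl12, brings monocytes out of the bone marrow, and Ccr1 responds to Ccl3, Ccl5, Ccl6, Ccl7 and Ccl9. Cx3cr1, the receptor of the membrane-bound chemokine Cx3cl1, marks patrolling monocytes and many resident macrophages, whereas Cxcr4, the receptor of Cxcl12, holds cells in the marrow. Ccr7 guides mature dendritic cells to Ccl19 and Ccl21 in lymph nodes. Ccrl2 is an atypical receptor that binds chemerin (Rarres2) and presents it to Cmklr1 without coupling to G proteins.

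In the mouse genome GRCm38, the GENCODE annotation places Ccr1 at chr9:123962124-123968692, Ccr2 at chr9:124101950-124113557, Ccrl2 at chr9:111054486-111057519, Cx3cr1 at chr9:119901616-120069879, Ccr7 at chr11:99144196-99155077 and Cxcr4 at chr1:128588199-128592293. Ccr2 lies on the plus strand and the other 5 on the minus strand. Ccr1 and Ccr2 lie in a receptor cluster on chromosome 9, with Ccr3 between them. Cx3cr1 shares 78 exon bases with an antisense gene, Gm33858, and since the counts do not use strand, reads of the pair cannot be told apart there.

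RefSeq start-site windows of 300 bases (250 before to 50 after the start, GRCm38.p6, printed 5′ to 3′ on the gene's strand) were found for 5 of the 6 receptors. The window of Ccr2, the receptor that differed between genotypes after IFNγ, and those of the 3 receptors whose mRNA moved with IFNγ in both genotypes are shown. Capitals mark matches to 4 motifs searched on both strands: the gamma activated sequence TTCNNNGAA, an interferon response element core GAAANNGAA, the PU.1 core GAGGAA and the TATA box TATAAA.
Ccr2 (chr9:124101933-124102232, plus strand): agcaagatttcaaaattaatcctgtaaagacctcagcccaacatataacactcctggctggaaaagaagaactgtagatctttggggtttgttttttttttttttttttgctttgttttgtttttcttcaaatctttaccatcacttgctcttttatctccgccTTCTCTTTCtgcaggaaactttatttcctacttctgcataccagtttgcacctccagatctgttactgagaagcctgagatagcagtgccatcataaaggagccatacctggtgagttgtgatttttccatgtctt
Ccrl2 (chr9:111057469-111057768, minus strand): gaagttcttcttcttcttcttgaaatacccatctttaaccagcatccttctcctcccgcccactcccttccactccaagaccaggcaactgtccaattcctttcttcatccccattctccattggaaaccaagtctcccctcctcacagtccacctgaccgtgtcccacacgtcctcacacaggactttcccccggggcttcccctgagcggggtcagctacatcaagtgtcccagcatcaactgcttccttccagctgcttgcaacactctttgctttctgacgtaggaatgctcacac
Cx3cr1 (chr9:120068247-120068546, minus strand): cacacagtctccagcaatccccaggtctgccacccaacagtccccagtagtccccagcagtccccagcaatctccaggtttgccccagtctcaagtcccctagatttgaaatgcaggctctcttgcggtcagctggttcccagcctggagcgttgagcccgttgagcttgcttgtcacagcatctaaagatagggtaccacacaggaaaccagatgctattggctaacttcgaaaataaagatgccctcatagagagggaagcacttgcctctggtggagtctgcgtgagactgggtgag
Cxcr4 (chr1:128592250-128592549, minus strand): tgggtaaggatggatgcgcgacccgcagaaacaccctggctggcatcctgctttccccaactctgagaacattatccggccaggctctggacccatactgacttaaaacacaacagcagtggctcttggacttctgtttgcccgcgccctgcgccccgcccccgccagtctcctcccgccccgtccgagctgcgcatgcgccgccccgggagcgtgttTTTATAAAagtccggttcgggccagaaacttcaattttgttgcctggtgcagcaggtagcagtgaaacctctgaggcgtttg
The capitals of Ccr2 are a GAAANNGAA match on the opposite strand, with its first base at -86 from the start. The capitals of Cxcr4 are 2 overlapping TATAAA matches, on either strand, at -32 and -30. Ccrl2 and Cx3cr1 held no match to the 4 motifs, and Ccr1, not shown, held a PU.1 core at -129. Of 32851 such windows in the genome, 8.56% held GAAANNGAA, 13.6% TATAAA, 28.3% GAGGAA and 8.3% TTCNNNGAA, so a match or its absence is a description of these letters.

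Counts on genes per library ran from 14419697 to 20220329 in the time course, from 3614967 to 9879339 in day 8 BMDMs, from 7625225 to 23381318 in peritoneal macrophages, from 5295144 to 34380735 in the antibody experiment and from 21504555 to 45581528 in the BMDM sets. H3f3a lay between 33.6 and 93.8 CPM (counts scaled to the effective library size) in WT libraries and between 1.21 and 15.3 CPM in cKO and double KO libraries, whereas H3f3b, the other H3.3 gene, was clearly lower only in the antibody experiment (16.7 to 67.8 CPM against 295 to 468 CPM). H3f3b was not called lower in cKO in the time course, in day 8 BMDMs, in peritoneal macrophages or in the sets, so these RNA values do not show a loss of both H3.3 transcripts there, and groups are named as labelled. Lyz2 reached at most 81.9 CPM with LysM cre/cre and at least 4465 CPM without it. Tmem173, which encodes STING, was at 5.01 to 6.10 CPM in H3.3cKO:StingKO and at 68.2 to 91.7 CPM in the cKO sets, and Irf7 was at 98.3 to 112 CPM in H3.3cKO:Irf7KO and at 249 to 470 CPM in those sets. Mavs overlapped, with 37.2 to 37.9 CPM in the libraries labelled H3.3cKO:MavsKO and 36.0 to 51.6 CPM in the cKO sets. It was called lower there against the mean of the cKO sets (log2 fold change -0.26, adjusted p = 0.00414 by edgeR). The paper reports the Mavs deletion from genomic PCR, qRT-PCR and exons missing in RNA-seq tracks, and counts over the whole gene do not resolve single exons. The macrophage markers Adgre1, Csf1r, Cd68, Mertk, Itgam and Fcgr1 were present in every group, with a summed level of 2480 to 11300 CPM. The peritoneal macrophage markers Gata6, Icam2, Selp, Alox15 and Timd4 summed to 20000 to 23800 CPM in peritoneal libraries and to at most 34.5 CPM elsewhere. Single libraries stood apart for the receptors: WT day 7 replicate 2, the shallow cKO IFNγ replicate 1, WT no antibody replicate 1 and H3.3cKO:Irf7KO replicate 1. Printed log2 fold changes of receptors that these libraries move by over 1.5 times or across the threshold are given with and without them.

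Per kilobase of exon, a scale on which genes can be compared, the 6 receptors spanned a wide range. In WT cells of day 3 Ccr1 was at 25.7 ± 4.87 CPM per kb (mean ± SD, n = 3), Cxcr4 at 20.4 ± 2.86, Cx3cr1 at 15.2 ± 7.96, Ccr2 at 11.1 ± 7.06, Ccrl2 at 2.06 ± 2.02 and Ccr7 at 0.442 ± 0.269. The first 4 of these did not differ from their neighbours in the order beyond their spread. Cxcr4 led in untreated WT BMDMs of day 8 at 35.4 ± 7.35 CPM per kb and in WT BMDMs without antibody at 264 ± 106 CPM per kb, 2 experiments that were scaled separately. In WT peritoneal macrophages Ccr1 led at 202 ± 37.8 CPM per kb, far above Ccrl2 at 8.63 ± 4.43, Ccr2 at 6.02 ± 2.46 and Cxcr4 at 3.96 ± 1.74. Cx3cr1 was the lowest there, at 0.114 ± 0.0640 CPM per kb, next to Ccr7 at 0.322 ± 0.239.

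The comparison of cKO and WT cells on days 3, 5 and 7 asked when in macrophage differentiation the genotypes part. On day 3 Ccr7 was higher in cKO, and it was the only receptor called at an adjusted p under 0.05. Ccrl2 and Cxcr4 had higher means and Cx3cr1 a lower mean in cKO without being called. Across all 15955 genes tested, 8.65% were called on day 3, against 1 of the 6 receptors. The median log2 fold change of the receptors was 0.73, beside 0.04 over all genes.

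Ccr7 had 7.04, 5.75 and 3.61 CPM in the 3 cKO libraries of day 3 and 0.341, 0.880 and 1.40 CPM in the 3 WT libraries. The groups did not overlap, although the counts were small, with 69 to 112 reads per cKO library and 5 to 25 per WT library. Ccr7 had a log2 fold change of 2.58 (SE 0.47, adjusted p = 0.00252 by edgeR's quasi-likelihood test with Benjamini-Hochberg adjustment), and it stayed between 2.21 and 3.1 over 12 alternatives, each of which called it. Ccrl2 stood at 41.4, 9.85 and 13.5 CPM in cKO and at 11.4, 1.94 and 2.70 CPM in WT. In each genotype replicate 1 was far above the others, so the groups overlapped, while every cKO library exceeded the WT library of the same number. Ccrl2 had a log2 fold change of 2.04 (SE 0.66, adjusted p = 0.0684 by edgeR). With the replicate number as a block it was 2.06 (adjusted p = 0.0148), a call that the fit without the block did not make. Without WT replicate 1 the value was 3.18 (adjusted p = 0.0176), and without cKO replicate 1 it was 1.14 (adjusted p = 0.37).

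Cxcr4 showed 126, 70.6 and 69.3 CPM in cKO on day 3 and 34.7, 33.3 and 42.9 CPM in WT. No cKO library was as low as a WT library, and the log2 fold change of 1.26 (SE 0.42) had an adjusted p of 0.0739 by edgeR. Cx3cr1 lay at 28.9, 26.9 and 31.7 CPM in cKO and at 66.5, 105 and 33.4 CPM in WT. The WT libraries were scattered and all above the cKO libraries, and the log2 fold change of -1.23 (SE 0.49) was not called (adjusted p = 0.145). Ccr1, with 57.7 to 84.6 CPM in WT and 76.9 to 86.7 CPM in cKO, and Ccr2, with 25.5 to 121 CPM in WT and 64.8 to 94.4 CPM in cKO, overlapped between genotypes.

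Markers of other cell types moved with genotype on day 3. The monocyte markers Ly6c2, Plac8, F13a1 and Chil3 summed to 874 to 1250 CPM in cKO and to 353 to 592 CPM in WT. Dendritic cell markers summed to 44.1 to 52.4 CPM against 10.6 to 29.2 CPM, with Cd209a at 0 in cKO, B cell markers to 24.9 to 52.9 CPM against 11.6 to 12.7 CPM, and mast cell, basophil and eosinophil markers to 28.9 to 33.7 CPM against 6.80 to 14.1 CPM. Neutrophil, stromal, T and NK cell and macrophage sums overlapped between genotypes. A list of 10 interferon-response genes summed to 1220 to 1720 CPM in cKO and to 26.3 to 38.0 CPM in WT, and all 10 were called higher. Ccr7 is expressed by dendritic cells and B cells as well. In bulk RNA, more cells of a type and more RNA per cell cannot be told apart, and the part of these cells in the receptor values was not tested.

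By day 5 none of the 6 receptors was called between genotypes by edgeR, where 3.12% of all genes were called. Ccr7 alone of the receptors had an unadjusted p under 0.05, as did 2241 of all 15955 genes. It had 2.96, 0.687 and 1.72 CPM in cKO and 0.239, 0.608 and 0.568 CPM in WT. At a log2 fold change of 1.86 it had an SE of 0.58 and an adjusted p of 0.111, and DESeq2 called it (adjusted p = 0.0407). Ccr2 did not overlap either, with 154 to 200 CPM in cKO and 86.1 to 128 CPM in WT, at a log2 fold change of 0.61 (adjusted p = 0.632).

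On day 7 none was called, beside 1.82% of all genes, and DESeq2 called 0. Cxcr4 alone of the receptors reached an unadjusted p under 0.05, as did 2653 of all 15955 genes. Cxcr4 had 48.1, 209 and 53.9 CPM in WT and 45.1, 48.6 and 51.3 CPM in cKO. The difference sat in WT replicate 2, and the log2 fold change of -1.10 (adjusted p = 0.189) became -0.08 without that library and was called without WT replicate 1 (-1.44, adjusted p = 0.0436). The same library held the highest Ccr2 value of the WT day 7 group, 267 CPM against 72.5 and 80.8 CPM. Ccrl2, with 10.4 to 13.8 CPM in cKO and 6.15 to 9.87 CPM in WT, was separated between genotypes but not called.

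**Figure D1:**
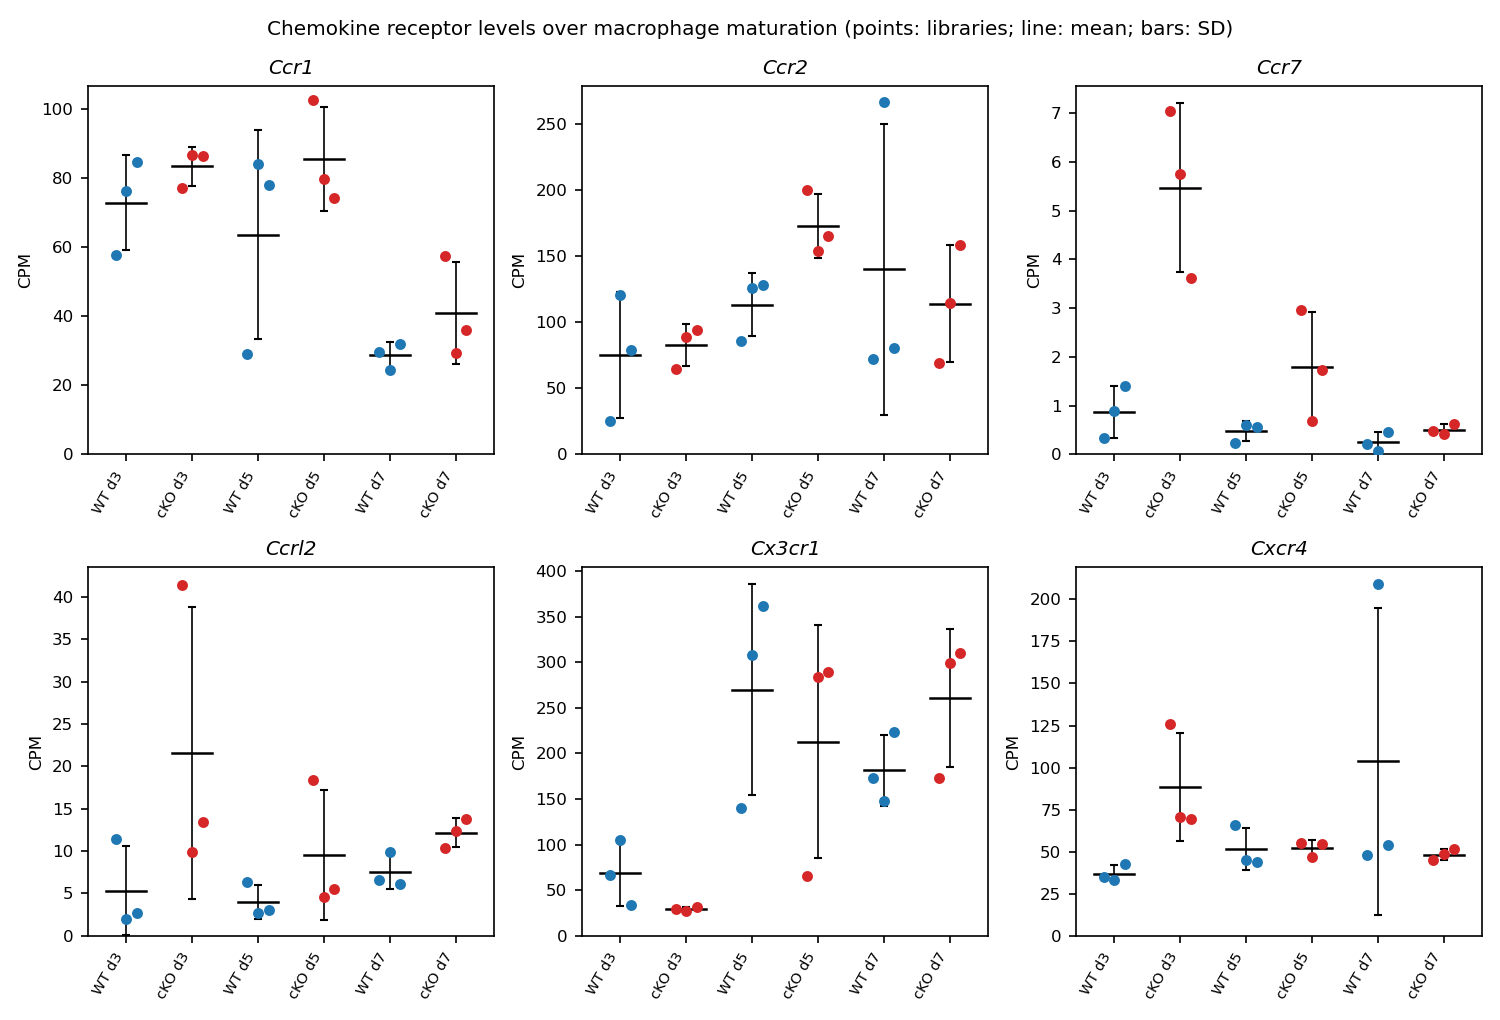
CPM of each receptor on days 3, 5 and 7 in the 3 WT and 3 cKO libraries of each day (points are libraries, horizontal lines group means and bars SDs). Ccr7 on day 3 lies between 3.61 and 7.04 CPM in cKO and at or under 1.40 CPM in WT, and the WT library of day 7 at 209 CPM stands apart for Cxcr4.

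Within a genotype, Cx3cr1 was the receptor that rose between day 3 and day 5. In WT it went from 66.5, 105 and 33.4 CPM on day 3 to 140, 309 and 362 CPM on day 5, a log2 fold change of 1.98 (SE 0.49, adjusted p = 0.0400 by edgeR). In cKO it went from 26.9 to 31.7 CPM to 65.6, 284 and 290 CPM, a log2 fold change of 2.87 (SE 0.51, adjusted p = 0.00475). Day 3 and day 5 did not overlap in either genotype. The WT call was made in 6 of 12 alternatives, with adjusted p up to 0.18, since leaving out any WT library but day 3 replicate 2 ended it, and the cKO call in 12 of 12. Cx3cr1 is carried by monocytes that mature into macrophages. In these cultures the monocyte markers fell while Cx3cr1 rose. They summed to 353 to 592 CPM in WT and 874 to 1250 CPM in cKO on day 3. On day 5 they summed to 122 to 281 CPM in WT and 317 to 784 CPM in cKO. Their part in the Cx3cr1 values was not tested.

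Ccr7 fell by 1.63 on the log2 scale in cKO over the same interval (SE 0.42, adjusted p = 0.0354), from 3.61 to 7.04 CPM to 0.687 to 2.96 CPM, and 7 of 12 alternatives called it. B cell markers in cKO summed to 24.9 to 52.9 CPM on day 3 and to 5.05 to 13.3 CPM on day 5, and dendritic cell markers to 44.1 to 52.4 CPM and to 21.0 to 33.5 CPM, and their part in the Ccr7 values was not tested. Leaving out replicate 1 or 2 of day 3 or replicate 2 or 3 of day 5 ended the call, with log2 fold changes from -1.61 to -1.2. Ccr2 was at 154 to 200 CPM in cKO on day 5 after 64.8 to 94.4 CPM on day 3, without overlap and without a call (log2 fold change 1.07, adjusted p = 0.258). The day 5 against day 3 comparison called 2.91% of all genes in WT and 4.89% in cKO, beside 1 and 2 of the 6 receptors. Between days 5 and 7 edgeR called no receptor, with 0.15% of all genes called in WT and 0.0501% in cKO. Ccr1 went from 28.9, 84.0 and 77.9 CPM to 29.5, 24.4 and 32.1 CPM in WT, a log2 fold change of -1.15 (adjusted p = 0.0994) that DESeq2 called. In cKO, Ccr1 went from 74.1 to 103 CPM to 29.3 to 57.5 CPM (log2 fold change -1.06, adjusted p = 0.383), and DESeq2 called no receptor. Unadjusted p-values under 0.05 were reached by 2 receptors in each genotype, beside 2777 of all 15955 genes in WT and 845 in cKO.

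The change over time itself was not called different between genotypes for any receptor by edgeR. For day 7 against day 3, 0.0439% of all genes were called, and DESeq2 called 1 receptor. There, 2 receptors and 2491 of all 15955 genes had an unadjusted p under 0.05. Cxcr4 came closest, with a genotype difference of -2.36 (SE 0.59, adjusted p = 0.0947). Without WT day 7 replicate 2, the library that carried the day 7 difference, the value was -1.34 (adjusted p = 0.104), and it was called without WT day 7 replicate 1 (-2.70, adjusted p = 0.0329) or 3 (-2.64, adjusted p = 0.0423). For day 5 against day 3, 0% of all genes and no receptor were called, by edgeR or DESeq2 for the receptors, and 740 genes had an unadjusted p under 0.05, Cxcr4 among the receptors.

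The ligands and partners of these receptors were read from lists of 14 ligands, 18 other chemokine receptors and 20 signalling genes. On day 3, 1 of 11 tested ligands was called higher in cKO, Ccl8, a chemoattractant of monocytes, with a log2 fold change of 6.29 (adjusted p = 0.000318 by edgeR). Of the other receptors, 2 of 10 were called higher, Xcr1, the receptor of cross-presenting dendritic cells (2.21, adjusted p = 0.0356), and Cxcr5, which guides B cells (1.71, adjusted p = 0.0251). The signalling list had 2 of 20 called higher, the receptor kinase Grk3 (0.62, adjusted p = 0.0423) and the phospholipase Plcb2 (0.59, adjusted p = 0.0305). Median log2 fold changes of the 3 lists were 0.85, 0.52 and -0.08, and 8.65% of all genes were called on day 3. On days 5 and 7 the ligand Cx3cl1 was called higher in cKO, at 1.23 (adjusted p = 0.0215) and 1.34 (adjusted p = 0.0259), while its receptor Cx3cr1 was not called. None of the 10 other receptors and 20 signalling genes counted here was called by edgeR on these days.

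**Figure D2:**
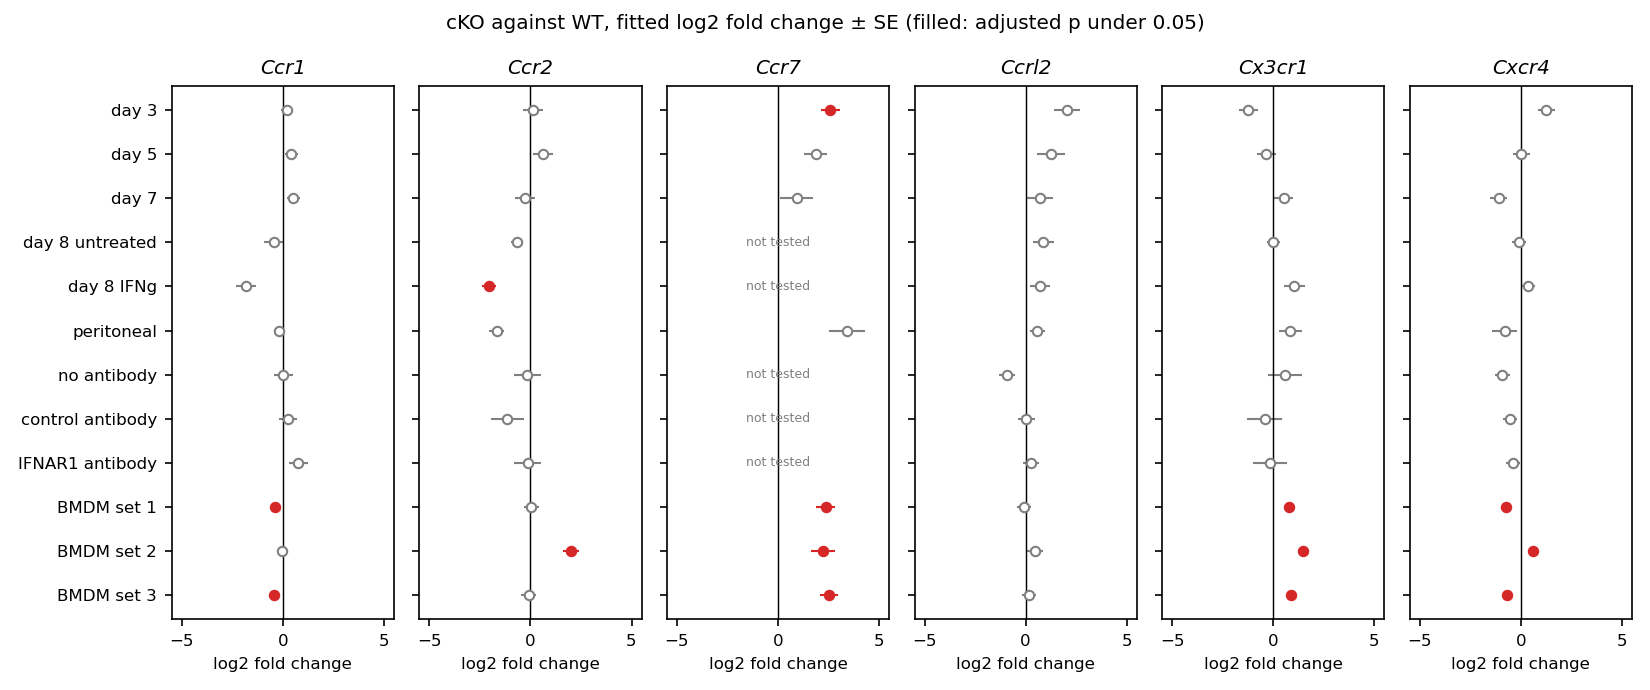
Log2 fold change of cKO over WT with its SE for each receptor in every experiment (edgeR), where filled red points were called at an adjusted p under 0.05. Ccr7 is above 0 in all 7 comparisons that tested it and was not tested in day 8 BMDMs or the antibody experiment. Cxcr4 lies on both sides of 0 among the BMDM sets.

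IFNγ activates macrophages, and the day 8 comparison asked how WT and cKO BMDMs respond to it. Within 12 h the treatment moved 3 receptors in both genotypes: Cx3cr1 and Cxcr4 fell and Ccrl2 rose. Without cKO IFNγ replicate 2, Ccr1 (-2.36, adjusted p = 0.00541) and Ccr2 (-1.83, adjusted p = 0.0182) were called lower in cKO as well. In this experiment 38.9% of all 13075 genes were called in WT and 33.9% in cKO, so 3 of 5 tested receptors is set against a high background. Median log2 fold changes of the 5 receptors were 0.57 in WT and -0.81 in cKO, beside -0.01 and -0.02 over all genes.

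Cx3cr1 had 95.3, 48.1 and 69.1 CPM in untreated WT BMDMs and 0.536, 0.149 and 0.723 CPM with IFNγ. In cKO it had 66.6 and 75.9 CPM untreated and 1.21 and 0.942 CPM with IFNγ. The treated libraries held 1 to 8 reads of this gene, so almost the whole signal was gone while the exact fold rests on few reads. Log2 fold changes were -7.15 in WT (SE 0.41, adjusted p = 1.28e-06 by edgeR) and -6.12 in cKO (SE 0.50, adjusted p = 1.99e-05).

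Cxcr4 had 54.5, 79.2 and 58.4 CPM in untreated WT BMDMs and 12.97, 14.6 and 9.15 CPM with IFNγ. In cKO it had 56.3 and 63.1 CPM untreated and 7.85 and 21.8 CPM with IFNγ. All treated libraries were below all untreated ones. The log2 fold changes were -2.39 in WT (SE 0.32, adjusted p = 0.000315) and -1.95 in cKO (SE 0.39, adjusted p = 0.00432). Without cKO IFNγ replicate 2 the cKO value was -2.95 (adjusted p = 0.000217).

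Ccrl2 went the other way, from 6.58, 5.31 and 5.60 CPM to 50.4, 54.8 and 34.0 CPM in WT. In cKO it went from 9.17 and 12.1 CPM to 22.9 and 127 CPM. The cKO libraries with IFNγ were far apart, yet both exceeded every untreated library. Log2 fold changes were 2.99 in WT (SE 0.50, adjusted p = 0.00109) and 2.84 in cKO (SE 0.60, adjusted p = 0.00539). The cKO value missed the threshold without untreated cKO replicate 1 (2.65, adjusted p = 0.0614), and without cKO IFNγ replicate 2 it was 1.08 (adjusted p = 0.0318). These 3 receptors include Ccrl2 and Cx3cr1, whose start-site windows above held none of the 4 motifs, and Cxcr4, whose window held a TATA box.

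Ccr2 was the receptor that differed between genotypes after IFNγ. It had 19.8, 26.5 and 28.3 CPM in WT and 3.02 and 8.01 CPM in cKO, the latter from 5 and 68 reads. This gave a log2 fold change of -2.05 (SE 0.34, adjusted p = 0.0122 by edgeR), with 5.48% of all genes called. It was -1.60 (adjusted p = 0.00515) without the shallow cKO replicate 1, and 10 of 13 alternatives called it. The call was lost without WT replicate 3 (-1.96, adjusted p = 0.061), and without cKO replicate 2 the value was -3.06 (adjusted p = 0.000634). Ccr1 had 106, 48.97 and 91.4 CPM in WT and 7.85 and 36.5 CPM in cKO. That was also a separation without overlap, at a log2 fold change of -1.83 (SE 0.51, adjusted p = 0.0651) that was not called. It was -1.15 (adjusted p = 0.056) without cKO replicate 1 and -3.42 (adjusted p = 0.000549) without cKO replicate 2.

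Of the 2 cKO libraries with IFNγ, replicate 1 was the lower for Ccr1, Ccr2, Ccrl2 and Cxcr4. It was also the shallowest library, with 3614967 counts on genes, and 57.1% of its reads were unmapped, against 12.6% to 18.4% in every other day 8 library. Without cKO replicate 2, the difference of Ccrl2 between genotypes turned from 0.72 (adjusted p = 0.395) to -1.04 (adjusted p = 0.03), and without replicate 1 it was 1.48 (adjusted p = 0.00308). The genotype difference of Ccrl2 after IFNγ thus had a sign set by a single library. Monocyte markers summed to 74.6 to 175 CPM in cKO and to 4.82 to 11.3 CPM in WT after IFNγ, and stromal markers to 62.5 to 386 CPM and to 9.86 to 57.3 CPM. Dendritic cell markers, which include the IFNγ-responsive Ciita, were at 22.4 to 34.1 CPM untreated and at 327 to 615 CPM with IFNγ (Cd209a at 0 in treated cKO), and the interferon list summed to 3640 to 5350 CPM in WT and 13200 to 13700 CPM in cKO. The part of these in the receptor values was not tested.

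Untreated, the BMDMs of day 8 gave no called receptor by edgeR or DESeq2 and none at an unadjusted p under 0.05. Of all 13075 genes, 0.658% were called and 793 had an unadjusted p under 0.05. Ccrl2, with 9.17 and 12.1 CPM in cKO and 5.31 to 6.58 CPM in WT, and Ccr2, with 10.2 and 10.95 CPM against 13.7 to 19.01 CPM, did not overlap between genotypes (log2 fold changes 0.87 and -0.67). Ccr1, with 37.9 and 41.0 CPM in cKO and 51.5 to 56.3 CPM in WT, did not overlap either, nor did the untested Ccr7, with 3 to 4 reads per cKO library and 0 to 1 per WT library. Groups of 2 and 3 libraries can readily separate without a real difference, and the share of all genes that did so was not counted. The response to IFNγ itself was not called different between genotypes for any receptor by edgeR or DESeq2, with 0% of all genes called and 1206 at an unadjusted p under 0.05. Ccr2 had the smallest adjusted p of these, 0.478 at -1.38 (SE 0.44), and alone an unadjusted p under 0.05. Without cKO IFNγ replicate 2, which leaves the shallow replicate 1 alone, 3 receptors were called, among them Ccr2 (-2.39, adjusted p = 0.00925) and Ccr1 (-2.96, adjusted p = 0.00429), and without replicate 1 none was (Ccr2 -0.91, adjusted p = 0.249, and Ccr1 -0.67, adjusted p = 0.508). A difference in response thus rested on which cKO library was kept. Ccr7 had 0 to 4 reads per library, and 0 reads in 4 libraries allow up to 0.319 to 0.353 CPM (3 reads, counting error only).

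Among the ligands, 3 of 11 rose and 3 fell with IFNγ in either genotype. In WT the risers were led by Ccl8 (7.38, adjusted p = 1.41e-05 by edgeR) and Ccl5, a ligand of Ccr1 (7.30, adjusted p = 0.000553). In cKO the same genes led, at 6.90 (adjusted p = 0.000146) and 6.16 (adjusted p = 0.00396). Of 6 other receptors, 2 rose and 3 fell in WT, with Xcr1 at 3.85 (adjusted p = 5.41e-05) and Ccr3, the eosinophil receptor, at -4.04 (adjusted p = 0.00217), and 1 rose and 1 fell in cKO. The signalling list had 5 of 20 higher and 5 lower in WT, and 5 higher and 4 lower in cKO, beside 38.9% and 33.9% of all genes called. Pik3cg, the lipid kinase downstream of these receptors, had the largest change of that list, at -2.26 in WT (adjusted p = 1.29e-05) and -2.93 in cKO (adjusted p = 2.33e-05). Between genotypes after IFNγ, Ccl7, a ligand of Ccr2, was higher in cKO (2.12, adjusted p = 0.0344) as the 1 called ligand of 11, and Pik3cg was lower (-0.85, adjusted p = 0.0457).

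**Figure D3:**
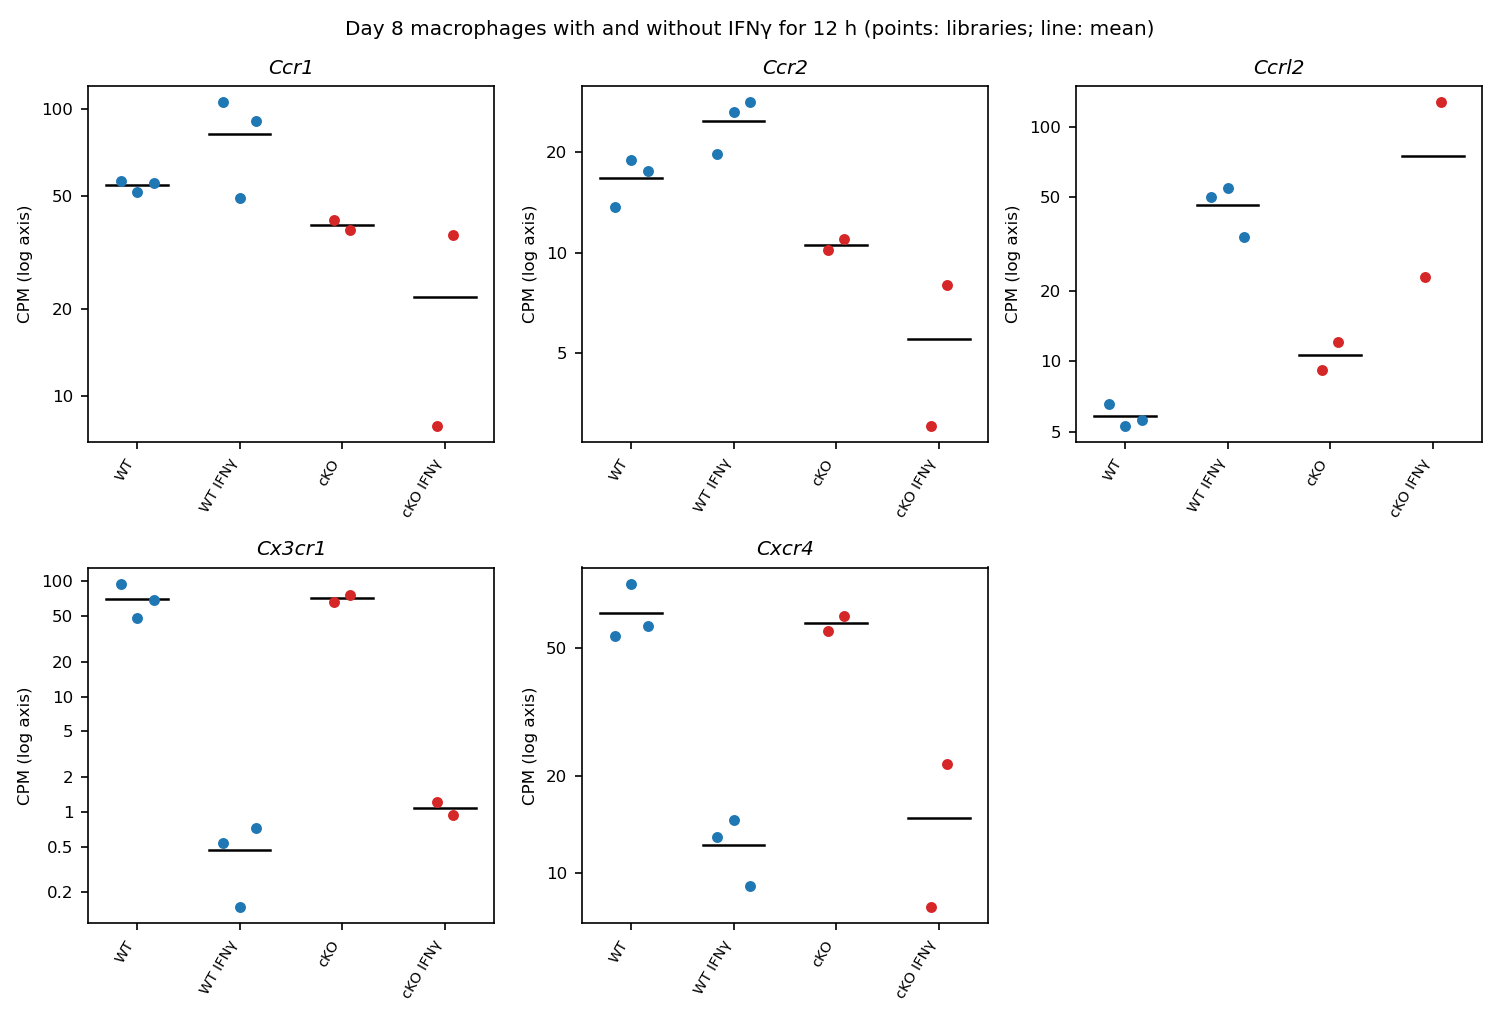
CPM on a log axis of the 5 tested receptors in day 8 BMDMs of WT (3 libraries) and cKO (2 libraries), untreated and with IFNγ for 12 h, with a point per library and lines at the means. Cx3cr1 drops from 48.1 to 95.3 CPM to at most 1.21 CPM in both genotypes.

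The 3 sets of WT and cKO BMDMs were sequenced more deeply, and 4 of the 6 receptors were called between genotypes in each set. Ccr7 and Cx3cr1 were higher in cKO in all 3 sets. Cxcr4 was lower in cKO in sets 1 and 3 and higher in set 2, Ccr1 was lower in sets 1 and 3, and Ccr2 was higher in set 2. Across all 18083 genes tested, 34.6%, 21.9% and 35.9% were called in sets 1, 2 and 3, so 4 of 6 is again set against a high background. Median log2 fold changes of the receptors were -0.01, 1.04 and 0.03.

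Ccr7 had 5.51, 5.03 and 4.001 CPM in cKO and 1.56, 0.250 and 1.28 CPM in WT of set 1. In set 2 it had 1.07, 1.37 and 1.82 CPM in cKO and 0.253, 0.438 and 0.166 CPM in WT, and in set 3 4.38, 7.60 and 3.49 CPM and 1.12, 0.663 and 0.825 CPM. Every cKO library was above every WT library of its set. Log2 fold changes were 2.35 (SE 0.46, adjusted p = 0.000268), 2.23 (SE 0.61, adjusted p = 0.00949) and 2.50 (SE 0.44, adjusted p = 9.78e-05 by edgeR), and all 12 alternatives called each of them. These lie beside the 2.58 of day 3, where other libraries were compared, although the level of Ccr7 remained low on the per-kilobase scale, at most 2.61 CPM per kb in a cKO set.

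Cx3cr1 had 185, 196 and 189 CPM in cKO and 135, 98.9 and 94.9 CPM in WT of set 1. In set 2 it had 90.7, 87.9 and 70.6 CPM in cKO and 24.9, 34.2 and 31.9 CPM in WT, and in set 3 159, 167 and 165 CPM and 98.0, 80.9 and 87.1 CPM. The groups did not overlap in any set, and the cKO libraries lay close together. Log2 fold changes were 0.79 (SE 0.24, adjusted p = 0.0127), 1.45 (SE 0.25, adjusted p = 0.000107) and 0.88 (SE 0.24, adjusted p = 0.00604). The value of set 1 lost its call without WT replicate 3.

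Cxcr4 had 102, 111 and 103 CPM in cKO and 179, 142 and 206 CPM in WT of set 1, and 82.6, 106 and 88.9 CPM in cKO and 189, 125 and 128 CPM in WT of set 3. In set 2 its level was far lower, and cKO was the higher, with 34.9, 33.3 and 31.8 CPM against 24.8, 18.1 and 22.3 CPM. Groups were apart in each set, in opposite directions. Log2 fold changes were -0.74 (SE 0.15, adjusted p = 0.000309), 0.62 (SE 0.15, adjusted p = 0.00398) and -0.68 (SE 0.15, adjusted p = 0.000749) in sets 1, 2 and 3.

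Ccr2 had 207, 268 and 206 CPM in cKO and 49.6, 63.1 and 55.9 CPM in WT of set 2, a log2 fold change of 2.01 (SE 0.39, adjusted p = 0.000414). In the other sets both genotypes were scattered over the same range, with 106 to 217 CPM in cKO and 99.7 to 209 CPM in WT of set 1, and 134 to 223 CPM in cKO and 99.9 to 249 CPM in WT of set 3. In set 2 the WT values lay below those of the other sets, and the cKO mean of 227 CPM was above the 160 and 171 CPM of cKO sets 1 and 3. Ccr1 had 64.0, 60.1 and 51.7 CPM in cKO and 88.2, 75.6 and 67.8 CPM in WT of set 1, and 50.7, 53.6 and 49.3 CPM in cKO and 69.6, 74.8 and 67.1 CPM in WT of set 3. These differences were small but outside the spread, at -0.40 (SE 0.10, adjusted p = 0.00369) and -0.46 (SE 0.10, adjusted p = 0.000955). In set 2 Ccr1 overlapped, with 44.2 to 50.2 CPM in cKO and 46.4 to 49.99 CPM in WT. Ccrl2 was called in no set, with 3.65 to 27.7 CPM in WT and 4.79 to 17.7 CPM in cKO.

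The difference between sets was tested as an interaction in the same model, a test chosen after the values were seen. The genotype change of set 2 differed from that of set 1 for Ccr2 and Cxcr4, with 20% of all genes called, and from that of set 3 for Ccr1, Ccr2 and Cxcr4, with 20.2% called. Sets 1 and 3 differed for no receptor, and 0% of all genes were called between them. Libraries of sets 1 and 3 with the same number deviated together from their group means over 7616 genes, with Pearson's r from 0.04 to 0.72 in WT and from 0.21 to 0.51 in cKO. The labels do not say whether the sets share animals, so sets 1 and 3 are not counted as independent repeats.

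Marker sums moved with genotype in the sets as well. Monocyte markers summed to 237 to 343, 197 to 233 and 239 to 364 CPM in cKO and to 80.2 to 244, 65.4 to 98.6 and 104 to 307 CPM in WT of sets 1, 2 and 3. Dendritic cell markers summed to 74.3 to 106 CPM in WT of set 2, above the 22.1 to 25.4 CPM of its cKO libraries, whereas in sets 1 and 3 the genotypes overlapped. B cell markers summed to 7.60 to 10.03, 11.8 to 14.2 and 5.70 to 12.1 CPM in cKO and to 2.56 to 6.85, 3.97 to 5.57 and 2.73 to 5.23 CPM in WT, without overlap in any set. Neutrophil markers separated genotypes in set 1 (210 to 270 CPM in cKO, 100 to 156 CPM in WT) and set 3 (197 to 288 CPM and 96.0 to 156 CPM), and stromal markers in set 3 (26.6 to 37.3 CPM and 12.2 to 17.3 CPM). The interferon list was at 726 to 1130 CPM in cKO and 155 to 369 CPM in WT over the 3 sets. Their part in the receptor values was not tested.

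Of 11 ligands, 7, 3 and 5 were called higher and 1, 2 and 1 lower in cKO of sets 1, 2 and 3, where 34.6%, 21.9% and 35.9% of all genes were called. Ccl12 and Ccl7, ligands of Ccr2, led set 1, at 2.60 (adjusted p = 7.64e-08 by edgeR) and 2.58 (adjusted p = 6.1e-07), and set 3, at 2.41 (adjusted p = 2.34e-07) and 2.77 (adjusted p = 2.38e-07), while Ccr2 was not called in either. Cx3cl1 led set 2 at 1.72 (adjusted p = 6.17e-06), where its receptor was called too. Of 11 other receptors, 3, 2 and 3 were higher and 3, 1 and 3 lower. Ccr3 was lower in each set (-1.80, adjusted p = 3.62e-05, then -3.55, adjusted p = 7.74e-12, and -1.79, adjusted p = 3.16e-05). Ccr6 led the higher ones in sets 1 and 3 (3.24, adjusted p = 0.000343, and 2.09, adjusted p = 0.00415), and Cxcr3 in set 2 (1.97, adjusted p = 1.08e-09). The signalling list had 6, 5 and 6 of 20 higher and 3, 3 and 3 lower, beside the same shares of all genes, with Rgs1, which shortens G protein signals, at 1.55 (adjusted p = 6.92e-07) in set 1 and 1.59 (adjusted p = 4.24e-07) in set 3. Median log2 fold changes of the ligands were 1.10, -0.01 and 0.99, those of the other receptors 0.10, -0.02 and -0.40, and those of the signalling genes 0.10, -0.04 and 0.02.

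**Figure D4:**
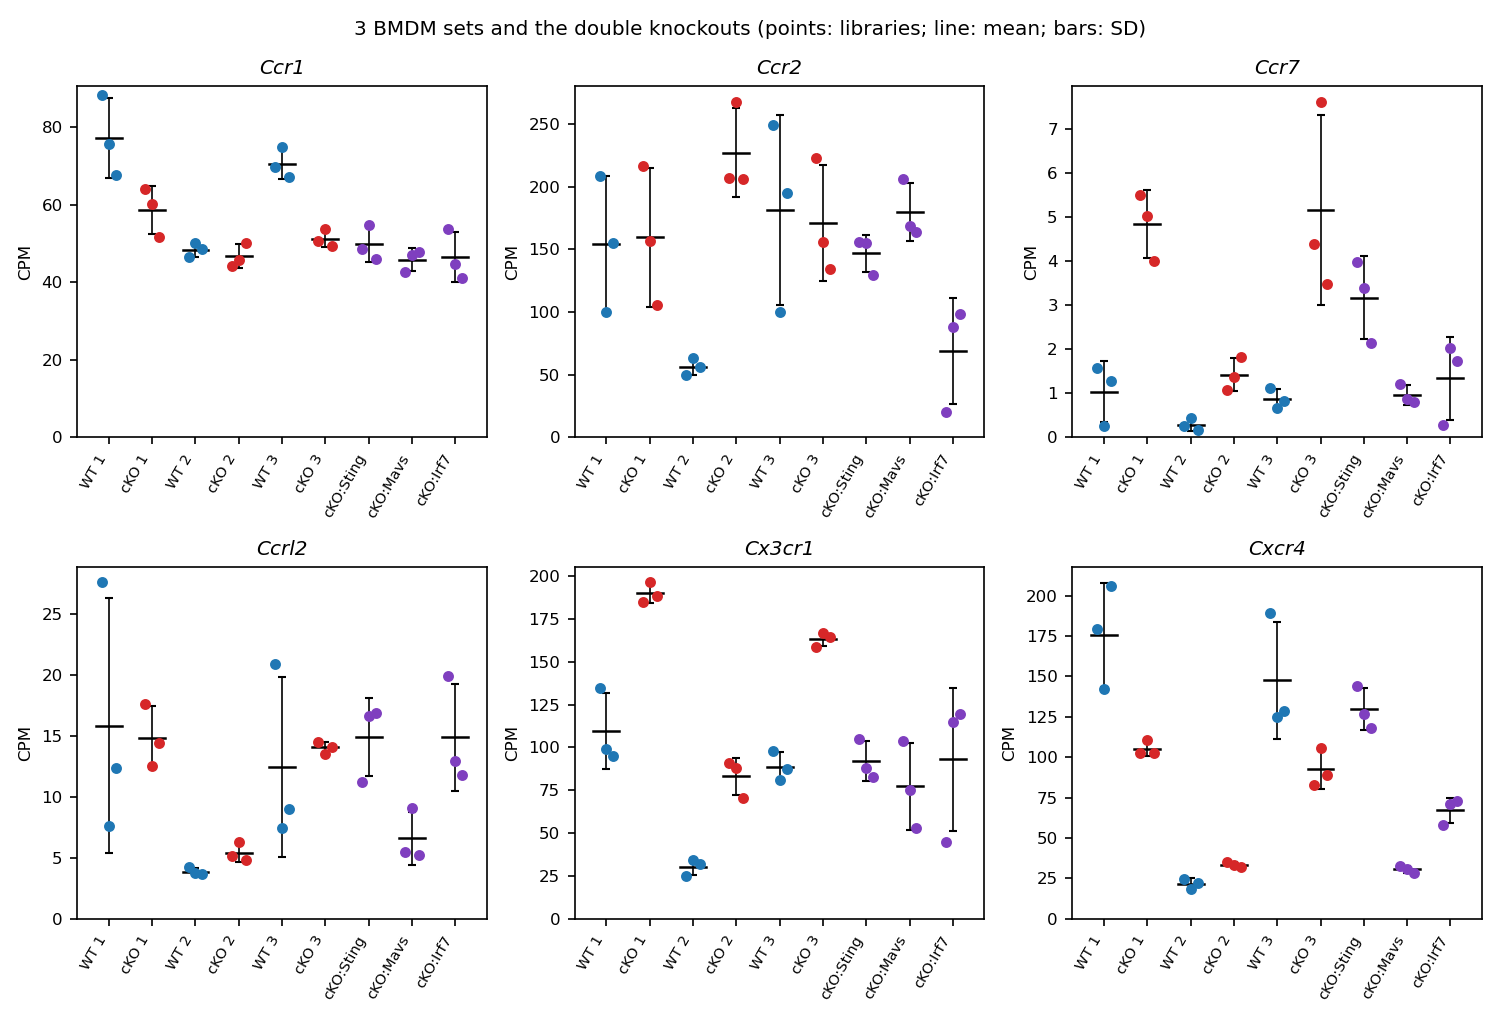
CPM of each receptor in the 3 libraries of every WT set, cKO set and double KO (points are libraries, horizontal lines means and bars SDs). Cxcr4 lies at 18.1 to 34.9 CPM in both genotypes of set 2 and above 82 CPM in sets 1 and 3.

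STING, MAVS and IRF7 carry signals from nucleic acid sensors to type I interferon, and the double KOs asked what their loss does in cKO cells. The labels tie no double KO to a set, so each was compared with the mean of the 3 cKO sets. The choice of set is given beside each result. In the series, H3.3cKO:StingKO is listed after set 1, H3.3cKO:MavsKO after set 2 and H3.3cKO:Irf7KO after set 3. Libraries of set 3 and H3.3cKO:Irf7KO listed 54146 genes, and the others of this experiment 55536. Calls against the mean can thus hold differences between sets. The 9 cKO libraries entered as independent, and these p-values rest on the spread within groups and hold no spread between sets. They are thus too small where the cKO sets differ from each other. This is more so if sets 1 and 3, which are not counted as independent repeats, share animals. In H3.3cKO:StingKO, 2 receptors were called with 36.4% of all genes called. Cxcr4 had 144, 127 and 118 CPM, above all 9 cKO libraries, at a log2 fold change of 0.92 (SE 0.11, adjusted p = 2.76e-06 by edgeR). Against cKO set 1 alone the difference was 0.30 (adjusted p = 0.139), against set 2 1.96 (adjusted p = 2.79e-09) and against set 3 0.49 (adjusted p = 0.0123). Cx3cr1 had 105, 88.1 and 82.5 CPM and a log2 fold change of -0.58 (SE 0.20, adjusted p = 0.0289), which was -1.05 against set 1, -0.83 against set 3 and 0.15 against set 2. The call was also lost without replicate 2 (-0.55, adjusted p = 0.0926) or replicate 3 (-0.51, adjusted p = 0.131).

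The libraries labelled H3.3cKO:MavsKO had 3 called receptors, beside 9.32% of all genes. Cxcr4 had 32.7, 30.7 and 28.1 CPM, close to the 31.8 to 34.9 CPM of cKO set 2 and far below the other sets. Its log2 fold change of -1.17 (SE 0.13, adjusted p = 1.54e-06) became -0.13 (adjusted p = 1) against set 2 alone. Ccr7 had 1.22, 0.866 and 0.791 CPM and a log2 fold change of -1.77 (SE 0.38, adjusted p = 0.00326), which became -0.56 (adjusted p = 1) against set 2. Cx3cr1 had 104, 75.3 and 52.7 CPM and a log2 fold change of -0.83 (SE 0.21, adjusted p = 0.0107), which became -0.11 (adjusted p = 1) against set 2 and was not called without replicate 2 (-0.81, adjusted p = 0.0536) or replicate 3 (-0.62, adjusted p = 0.129). Against set 2, none of the 3 differences was called, and Ccrl2, with 5.27 to 9.12 CPM, was not called against the mean of the sets (log2 fold change -0.64, adjusted p = 0.213).

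In H3.3cKO:Irf7KO, 2 receptors were called, beside 10.6% of all genes. Ccr2 had 20.1, 87.7 and 98.4 CPM, below all 9 cKO libraries, at a log2 fold change of -1.42 (SE 0.34, adjusted p = 0.00744). Monocyte markers, at 107 to 142 CPM against 197 to 364 CPM, were also below every cKO set library. So were B cell markers, at 3.45 to 5.47 CPM against 5.70 to 14.2 CPM. The same held for neutrophil markers, at 123 to 143 CPM against 158 to 288 CPM. Macrophage markers were lower without overlap too, at 3380 to 3700 CPM against 3830 to 4930 CPM. The part of these markers in the receptor values was not tested. Replicate 1 stood apart, and without it the log2 fold change of Ccr2 was -0.98 (adjusted p = 0.0409). Against cKO set 3 alone it was -1.31 (adjusted p = 0.0961), against set 1 -1.21 (adjusted p = 0.0483) and against set 2 -1.72 (adjusted p = 0.00236). Ccr7 had 0.270, 2.03 and 1.72 CPM and a log2 fold change of -1.24 (SE 0.36, adjusted p = 0.0274). That call was lost without replicate 1 (-0.78, adjusted p = 0.195) or cKO set 2 replicate 3 (-1.17, adjusted p = 0.0503), and against set 2 the value was -0.03 (adjusted p = 0.977). Cx3cr1, with 45.0, 115 and 119 CPM, was not called (log2 fold change -0.56, adjusted p = 0.0809), and without replicate 1 the value was -0.23 (adjusted p = 0.495) and without replicate 3 -0.78 (adjusted p = 0.0433). H3f3b in this group was at 71.9 to 147 CPM, under the 187 to 220 CPM of the cKO sets.

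For each double KO, 11 ligands, 11 other receptors and 20 signalling genes were tested. Of all genes, 36.4% were called in H3.3cKO:StingKO, 9.32% in the libraries labelled H3.3cKO:MavsKO and 10.6% in H3.3cKO:Irf7KO. In H3.3cKO:StingKO 2 ligands were higher and 2 lower of 11, led by Ccl8 (1.71, adjusted p = 0.00437), 2 other receptors were higher of 11, led by Ccr6 (1.33, adjusted p = 0.0218), and 7 signalling genes were higher and 4 lower of 20, led by Rgs1 (-0.68, adjusted p = 0.00132). In the libraries labelled H3.3cKO:MavsKO, 1 ligand was higher, Cxcl12, which binds Cxcr4 (2.87, adjusted p = 8.11e-06), and 1 lower, Ccl5 (-1.06, adjusted p = 0.0172). There, 1 other receptor was higher, Ccr3 (1.72, adjusted p = 1.54e-06), and 1 lower, Ccr9 (-1.15, adjusted p = 0.0207), with 2 signalling genes higher, led by Grk5 (0.51, adjusted p = 0.00952). Cxcl12 is made by stromal cells, and the stromal markers summed to 92.6 to 331 CPM in these libraries, to 181 to 226 CPM in H3.3cKO:StingKO and to 26.6 to 80.0 CPM in the cKO sets. Their part in these values was not tested. In H3.3cKO:Irf7KO, 2 ligands, 3 other receptors and 6 signalling genes were lower and none higher, with Cxcr2 (-1.25, adjusted p = 0.0369), Xcr1 (-1.10, adjusted p = 0.0197), Rgs1 (-0.62, adjusted p = 0.0103) and Cx3cl1 (-0.62, adjusted p = 0.0397) as leading genes.

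In peritoneal macrophages the comparison asked whether resident cells taken without culture differ between genotypes. No receptor was called by edgeR, where 1.06% of 12361 genes were called. Ccr2 and Ccr7 had unadjusted p-values under 0.05, as did 1189 of all genes tested. Both receptors were apart between genotypes without overlap and were called by DESeq2. Ccr2 had 17.5, 8.34 and 12.0 CPM in cKO and 58.8, 26.1 and 37.2 CPM in WT, a log2 fold change of -1.68 (SE 0.36, adjusted p = 0.0883). With the replicate number as a block, the value was -1.68 (adjusted p = 0.0183). Ccr7 had 11.9, 2.32 and 2.60 CPM in cKO and 0.899, 0.923 and 0.0911 CPM in WT, a log2 fold change of 3.42 (SE 0.88, adjusted p = 0.166) that was 2.13 (adjusted p = 0.341) without cKO replicate 1. Its reads numbered 20 to 279 per cKO library and 2 to 13 per WT library.

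The other receptors overlapped between genotypes. Ccr1 had 534, 692 and 487 CPM in WT and 416, 556 and 506 CPM in cKO. Ccrl2 had 34.6, 11.8 and 20.9 CPM in WT and 39.6, 22.3 and 37.7 CPM in cKO, and Cxcr4 had 10.5, 4.19 and 6.84 CPM in WT and 7.41, 0.950 and 3.51 CPM in cKO. Cx3cr1 was at 0.213 to 0.787 CPM in WT and 0.475 to 1.199 CPM in cKO, or few reads per library. Peritoneal libraries came from another kit and isolation than the BMDM libraries, so tissue and kit cannot be told apart. Monocyte markers summed to 29.0 to 45.7 CPM in cKO and 152 to 440 CPM in WT, a direction that depends on which markers are summed, dendritic cell markers to 23.7 to 39.0 CPM and 38.4 to 59.2 CPM, and T and NK cell markers to 10.7 to 44.5 CPM and 5.60 to 26.5 CPM. Their part in the values of Ccr2 and Ccr7 was not tested. Of 5 tested ligands, Cxcl12 was lower in cKO (-1.29, adjusted p = 0.0445), and no other receptor of 5 or signalling gene of 19 was called.

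The antibody experiment asked whether blocking the type I interferon receptor IFNAR1 from the start of culture changes cKO BMDMs. With all groups in a single model, no receptor was called by edgeR in any of its 8 comparisons. Refits with only the groups compared did call receptors between genotypes with control antibody and, in cKO, for control against no antibody. Between genotypes 8.16%, 5.11% and 0.698% of 17191 genes were called in the no antibody, control antibody and IFNAR1 antibody arms. IFNAR1 against control antibody called 11.2% of genes in WT and 4.68% in cKO, control against no antibody 9.74% and 2.09%, and the genotype difference of the IFNAR1 effect 0%, with 990 genes at an unadjusted p under 0.05. Between genotypes, unadjusted p-values under 0.05 were found for 2 of 5 receptors without antibody and for 0 with either antibody. Of all 17191 genes, 4808, 2757 and 2067 had them in the no antibody, control antibody and IFNAR1 antibody arms. Between antibodies 0 receptors had them in WT and 2 in cKO, beside 5817 and 3383 genes. Between control and no antibody 2 receptors had them in each genotype, beside 5222 genes in WT and 2062 in cKO. DESeq2 called 1 receptor, Ccr2, in cKO between antibodies and in cKO between control and no antibody, and 0 elsewhere.

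Ccr2 in cKO had 3.75, 3.43 and 3.11 CPM with control antibody, 6.53, 30.6 and 11.4 CPM with IFNAR1 antibody and 20.6, 31.6 and 11.1 CPM without antibody. The control antibody libraries were low and tight, and those of the other arms were scattered above them. Log2 fold changes were 2.21 (adjusted p = 0.129) for IFNAR1 over control antibody and -2.59 (adjusted p = 0.110) for control over no antibody, and the former was 1.34 (adjusted p = 0.346) without cKO IFNAR1 replicate 2. The same control libraries enter both values. In WT, Ccr2 had 8.75, 6.06 and 8.42 CPM with control antibody, 17.1, 5.90 and 29.9 CPM with IFNAR1 antibody and 50.9, 7.06 and 12.9 CPM without.

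Cx3cr1 followed a like scatter, with 11.6 to 19.9 CPM in cKO with control antibody, 16.3 to 80.2 CPM with IFNAR1 antibody and 43.4 to 110 CPM without antibody. In WT without antibody it had 115, 5.88 and 15.4 CPM. Without replicate 1 of that group, its log2 fold change between genotypes moved from 0.58 (adjusted p = 0.667) to 2.67 (adjusted p = 0.0274), and 3 receptors were called in place of 0. Ccrl2 had 59.0, 192 and 185 CPM in WT and 76.7, 70.2 and 84.3 CPM in cKO without antibody, so the same WT replicate was the low one there (log2 fold change -0.92, adjusted p = 0.16, and -1.29, adjusted p = 0.0235, without it).

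Cxcr4 was abundant in this experiment, with 290, 674 and 467 CPM in WT and 222, 252 and 283 CPM in cKO without antibody, which did not overlap (log2 fold change -0.92, adjusted p = 0.115, and -1.18, adjusted p = 0.0359, without WT replicate 1). With control antibody it had 356, 429 and 399 CPM in WT and 211, 300 and 303 CPM in cKO, again without overlap and without a call. With IFNAR1 antibody the genotypes overlapped, at 579, 692 and 292 CPM and 645, 273 and 274 CPM. Ccr1 ranged from 22.7 to 162 CPM over the 18 libraries. Ccr7 had 0 reads in every cKO library and 0 to 5 reads in WT libraries, so cKO did not exceed WT here. The 0 reads in 15 libraries allow up to 0.0833 to 0.542 CPM.

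The interferon list summed to 251 to 799, 192 to 322 and 143 to 193 CPM in cKO and to 46.8 to 92.3, 28.5 to 31.3 and 24.3 to 26.5 CPM in WT, in the no antibody, control antibody and IFNAR1 antibody arms. Stromal markers summed to 198 to 363 CPM in cKO with control antibody and to 40.0 to 98.3 CPM in its other cKO arms. Of 8 other receptors, Cxcr3 was higher in cKO without antibody (1.63, adjusted p = 0.00411 by edgeR) and with control antibody (1.62, adjusted p = 0.00490). Among the 10 ligands, Ccl3, a ligand of Ccr1, was higher with IFNAR1 than with control antibody in WT (2.62, adjusted p = 0.00380) and in cKO (2.12, adjusted p = 0.0191), as 1 of 3 and 1 of 4 called higher. Of the signalling genes, Plcb2 was higher in cKO without antibody (0.72, adjusted p = 0.0165) and with control antibody (1.11, adjusted p = 0.00120).

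**Figure D5:**
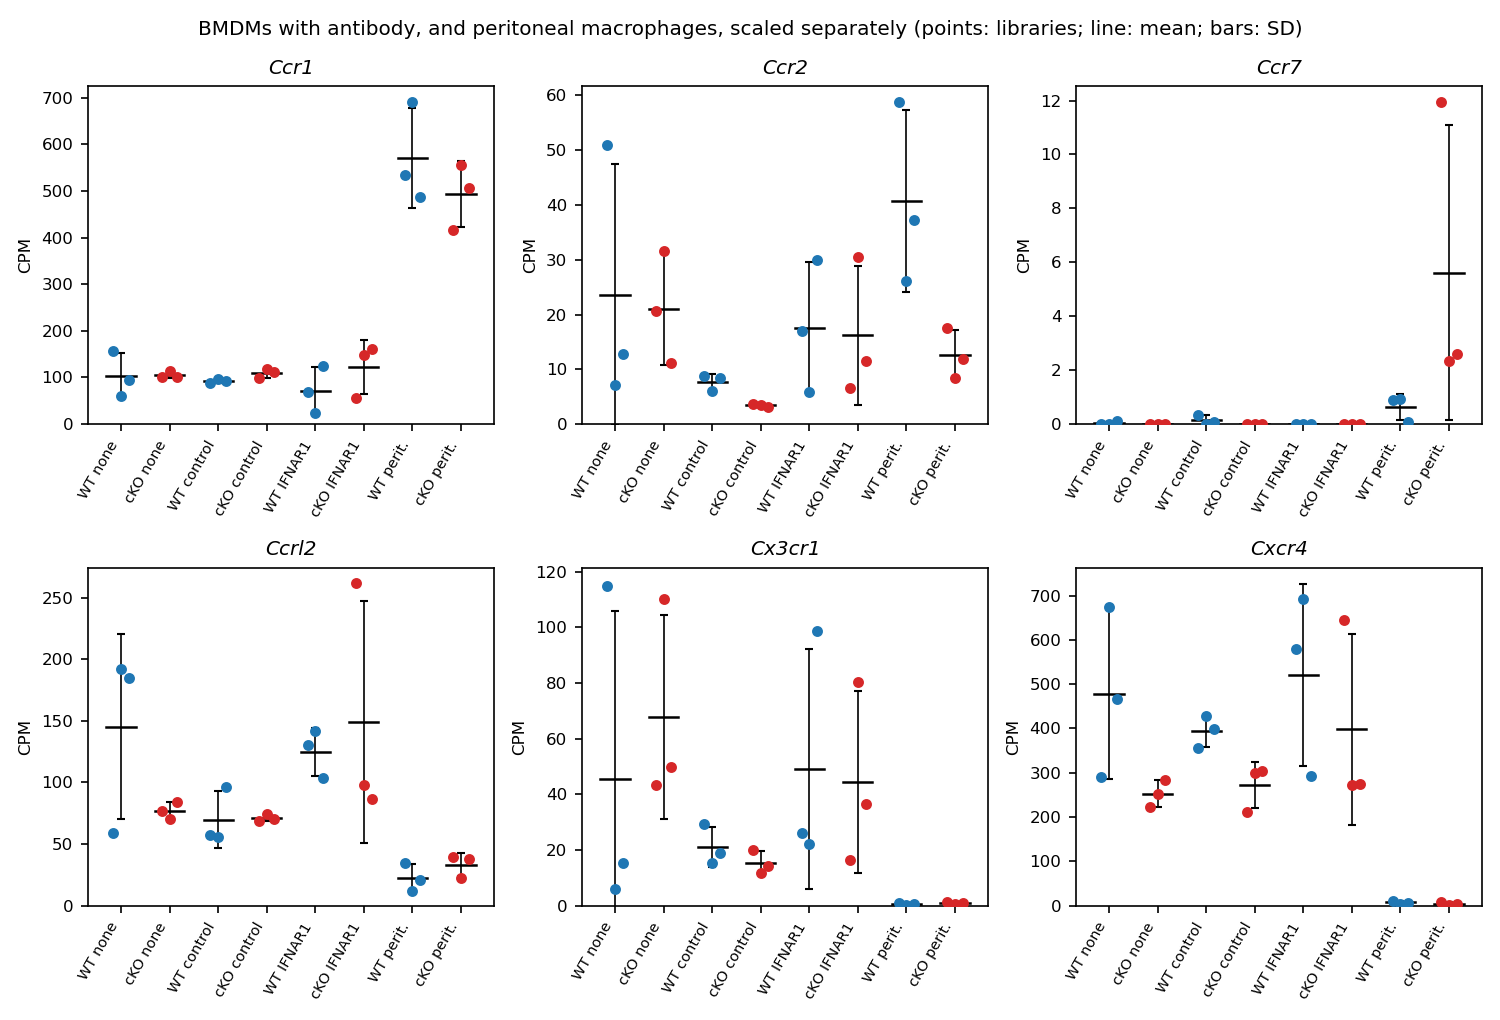
CPM of each receptor in the antibody experiment (WT and cKO without antibody, with control and with IFNAR1 antibody) and in peritoneal macrophages, with a point per library, lines at the means, bars for SDs and experiments scaled separately. Cxcr4 reaches 692 CPM in the antibody experiment and at most 10.5 CPM in peritoneal macrophages, where Ccr1 has its highest values.

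For each receptor, the genes whose log2 CPM followed it most closely over the 18 time course libraries were named from 8949 genes, as a description. Cx3cr1 was followed by Mmd (Pearson's r = 0.96), Rnf141 (0.94) and Neurl1b (0.94), with r of 0.74, 0.76 and 0.25 over the 18 antibody libraries. Cxcr4 was followed by Khnyn, Gigyf1 and Snrk (0.97, 0.96 and 0.95), where Snrk turned to -0.56 in the antibody libraries and the others gave 0.78 and 0.31. Ccr1 was followed by Slc16a6, Id3 and Id1 (0.93, 0.93 and 0.92, then 0.48, 0.71 and 0.51). Ccr2 had weaker followers, Tifab, Atp8b2 and H2-DMb1 (0.87, 0.85 and 0.82, then 0.31, 0.38 and 0.15). Ccrl2 was followed by Nod2, Lrp12 and Spty2d1 (0.92, 0.91 and 0.90, then 0.23, 0.70 and 0.82), and Ccr7 by Uros, Acap1 and Pigo (0.95, 0.92 and 0.92), with no value in the antibody libraries. Among the receptors themselves, Ccr1 and Ccr7 had the highest r, 0.74, and Cx3cr1 and Ccr7 the lowest, -0.66. The libraries share days and genotypes, so these values describe common movement across days as much as any other.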

How the data were processed

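RNA-seq was read from 81 libraries. Per the methods, the authors trimmed reads with Cutadapt, aligned them with STAR to mm10 (the assembly GRCm38) and used RSEM and SARTools for their own tests. BMDM libraries were made after rRNA depletion, peritoneal ones with another kit. The deposited values are STAR counts of reads per gene, without normalization. Counts without regard to strand were used, since counts for either strand came to 53.6% to 55.7% of them. Reads without a gene stayed out of library sizes: the unmapped, the multimapping, those in no feature and the ambiguous, with median shares of 8.74%, 9.07%, 12.6% and 5.24% in the time course and up to 16.1%, 12.5%, 25.0% and 6.01% elsewhere.

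Groups came from the labels. No test used 2 cKO libraries of day 8, whose titles and library names contradict each other on IFNγ. Within each experiment, genes were filtered with filterByExpr (minimum count 10, minimum total 15), scaled by TMM and tested by edgeR's quasi-likelihood F-test (edgeR 4.0.16 under R 4.3.3) in a single model of all groups. Benjamini-Hochberg adjustment ran over every gene tested, and calls needed an adjusted p under 0.05. Log2 fold changes are given for receptors that were called or reached 0.5 in size. CPM values are TMM-scaled and SDs are between libraries. The share of all genes whose groups did not overlap was not counted, so statements on overlap only describe these libraries. Intervals for 0 reads use 3 counts. Likeness used log2 CPM with a prior count of 2 among genes with a mean of at least 3.

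The members and lists were chosen with earlier results of these data known. A marker of monocytes and a gene of the other receptors are not reported here, and sums and counts leave them out. Named were the 6 receptors, from the lists of ligands, other receptors and signalling genes at most 2 called genes per list and comparison with the largest change, the targeted genes and, for likeness, 3 genes per receptor. Libraries of a group all differed beyond sampling noise (chi-square divided by its degrees of freedom at least 3.33). Same-numbered libraries deviated together, with every pair over an r of 0.1, for cKO against WT on day 3 (0.126 to 0.419), on day 7 (0.153 to 0.467) and in peritoneal macrophages (0.144 to 0.194), for IFNγ in WT (0.335 to 0.451), for day 7 against day 5 in cKO (0.233 to 0.492) and for control against no antibody in WT (0.145 to 0.284). Alternatives were DESeq2 1.42.0, RLE size factors, no filter, strand-specific counts, the replicate block, the groups compared alone, each library left out, either placement of the 2 unplaced libraries and each cKO set as reference. The set interactions and a crossed replicate numbering were added after seeing the data. The fits were tested on simulated data.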

Additional observations from a re-analysis of the deposited data

Results flagged for a closer look

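The genotype change of the receptors differed between the BMDM sets, tested as an interaction in edgeR's quasi-likelihood model of the 9 groups and chosen after the values were seen. The log2 fold change of cKO over WT was higher in set 2 than in set 1 by 1.96 for Ccr2 (SE 0.54, adjusted p = 0.0112) and by 1.36 for Cxcr4 (SE 0.21, adjusted p = 7.84e-05). It was higher in set 2 than in set 3 by 2.10 for Ccr2 (SE 0.54, adjusted p = 0.00703), by 1.29 for Cxcr4 (SE 0.21, adjusted p = 0.000114) and by 0.41 for Ccr1 (SE 0.14, adjusted p = 0.0440). For Ccr2 the 3 WT libraries of set 2 had 49.6 to 63.1 CPM against 99.7 to 249 CPM in the WT libraries of the other sets. Its cKO libraries had 206 to 268 CPM against 106 to 223 CPM in the cKO libraries of the other sets. For Cxcr4 both genotypes of set 2 had 18.1 to 34.9 CPM against 82.6 to 206 CPM in the other sets. What sets the sets apart is not in the labels.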

How the results depend on the processing

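Of 403 recalculated counts of called receptors, 347 stayed within 1.5 times of the reported count and 56 moved. Of 1420 recalculated log2 fold changes, 1324 kept direction and call, 51 gained and 38 lost a call, and 7 reversed. The cause of these changes was not tested. With DESeq2 the count of called receptors went from 1 to 3 for cKO against WT on day 3, from 0 to 1 on day 5, for day 7 against day 5 in WT, for the genotype difference of day 7 against day 3 and, in cKO, for IFNAR1 against control and control against no antibody, from 1 to 2 for cKO against WT with IFNγ and from 0 to 2 in peritoneal macrophages. Without a filter it was 2 for cKO against WT with IFNγ and 2 in peritoneal macrophages, and with strand-specific counts 1 in peritoneal macrophages and 1 in H3.3cKO:Irf7KO. With only the groups compared it was 3 on day 3, 0 for day 5 against day 3 in WT, 1 in untreated day 8 BMDMs, 0 for cKO against WT with IFNγ, 1 for IFNγ in cKO, 3 for the genotypes with control antibody and 2 for control against no antibody in cKO. The replicate block gave 2 on day 3 and 1 in peritoneal macrophages and moved no other count by over 1.5 times. Where same-numbered libraries did not deviate together, they share only a number. In day 8 cKO their r was -0.187, and the crossed numbering, added later, called 3, as reported. Placed by title, the 2 unplaced libraries gave 0 for cKO against WT with IFNγ, 0 for IFNγ in WT and 0 in cKO. That placement puts a library with 0.406 CPM of Cxcl9, which IFNγ induces, among the treated and one with 1704 CPM among the untreated. Libraries placed by agreeing labels had 202 to 4032 CPM treated and 0.178 to 0.596 CPM untreated. Placed by library name, the count was 2 for cKO against WT with IFNγ. Against cKO set 1 alone the count was 1 in H3.3cKO:StingKO, 5 in the libraries labelled H3.3cKO:MavsKO and 5 in H3.3cKO:Irf7KO, against set 2 it was 0 in MavsKO, and against set 3 it was 1 in Irf7KO.

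With each library left out, the count ran from 1 to 2 on day 3, from 0 to 1 on days 5 and 7, for day 5 against day 3 and day 7 against day 5 in WT, and for the genotype difference of day 7 against day 3, from 1 to 2 for day 5 against day 3 in cKO, from 0 to 3 for cKO against WT with IFNγ, from 2 to 5 for IFNγ in cKO, from 0 to 3 for its genotype difference, from 0 to 3 for cKO against WT without antibody, from 0 to 1 for control against no antibody in WT, from 1 to 2 in H3.3cKO:StingKO and from 1 to 3 in H3.3cKO:Irf7KO. The libraries behind the widest moves were cKO IFNγ replicate 2 and WT no antibody replicate 1. A group left with 1 library is taken to vary like the others. The log2 fold change of Cxcr4 for day 7 against day 5 in WT ran from -0.0133 (without WT day 7 replicate 2) to 1.35, that of Ccrl2 for the genotype difference of day 5 against day 3 from -1.95 to 0.0934 (without cKO day 3 replicate 1), that of Ccrl2 for cKO against WT with IFNγ was -1.04 without cKO IFNγ replicate 2, and that of Cx3cr1 for control against no antibody in WT from -1.63 to 0.995 (without WT no antibody replicate 1). Against cKO set 2, Cx3cr1 was at 0.145 in H3.3cKO:StingKO and 0.165 in H3.3cKO:Irf7KO, and Ccrl2 at 0.301 in MavsKO. Few reads limit Ccr7 throughout and Cx3cr1 after IFNγ and in peritoneal macrophages.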

Other observations

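The 2 cKO libraries of day 8 whose labels disagree had these values, scaled with all 12 libraries of the experiment. The library whose title names IFNγ and whose library name does not had 92.4 CPM of Cx3cr1, 54.9 CPM of Cxcr4, 11.1 CPM of Ccrl2, 11.7 CPM of Ccr2, 39.1 CPM of Ccr1 and 0.406 CPM of Ccr7, with 0.406 CPM of Cxcl9 and 22.7 CPM of Gbp2, both genes that IFNγ induces. The library whose library name gives IFNγ and whose title does not had 0.214 CPM of Cx3cr1, 15.6 CPM of Cxcr4, 109 CPM of Ccrl2, 9.96 CPM of Ccr2, 39.0 CPM of Ccr1 and 0.750 CPM of Ccr7, with 1704 CPM of Cxcl9 and 6454 CPM of Gbp2.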
